A study of Homo sapiens with 42 samples.

Results

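Small nucleolar RNA host genes are transcripts whose introns carry small nucleolar RNAs (snoRNAs), the guides that direct ribose methylation (box C/D snoRNAs) and pseudouridylation (box H/ACA snoRNAs) of ribosomal and other RNAs. The snoRNA is trimmed out of the excised intron, while the spliced exons of many hosts are poorly protected from nonsense-mediated decay, the pathway that removes RNAs with early stop codons. Many hosts begin with a terminal oligopyrimidine tract, the start that they share with ribosomal protein and translation factor genes, and GAS5 was named for its accumulation in growth-arrested cells. All genes whose table name is SNHG followed by a number, and GAS5, were taken, which gave 29 genes of 60240 in the table (28 SNHG genes and GAS5).

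Transcripts were counted from stranded total RNA libraries of acute myeloid leukaemia cell lines kept for 72 hours with decitabine or with DMSO. Decitabine is a deoxycytidine analogue that is built into DNA and traps DNA methyltransferases; per the labels' protocols it was added at 100 nM, on day 0 and again on days 1 and 2, to cells seeded at 100000 cells per mL. The lines were SKM-1, KG-1, OCI-AML3 and the sister lines MOLM-13 and MOLM-14, each with 3 decitabine and 3 DMSO libraries (30 libraries, 10 groups). The labels describe cells plated in duplicate or triplicate and do not say that replicates were separate cultures, so p-values cover only the spread among these libraries, which may be technical, and each line stands as 1 model of the disease.

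Depth differed between the lines. Estimated reads in genes ranged from 42910000 to 75140000 in MOLM-13 and from 50890000 to 69250000 in SKM-1, against 2971000 to 31210000 in KG-1, 1970000 to 17300000 in MOLM-14 and 2508000 to 25860000 in OCI-AML3, where replicate 2 of both arms was shallow (6 libraries). The myeloid genes PTPRC, SPI1, CD33, CEBPA, MPO, LYZ and FLT3 reached a normalised value of 10 in all 30 libraries, while the erythroid genes HBB and HBA1 did so in 0. A normalised value is the authors' estimated count divided by their normalization factor. In a bulk sample, fewer cells that express a gene and less of its RNA per cell cannot be told apart. Mitochondrial genes held 18.2% to 19.1% of the summed values in decitabine libraries of MOLM-13 and 12.5% to 14.1% in DMSO libraries, and in SKM-1 15.5% to 18.2% after decitabine and 13.7% to 15.1% with DMSO. With the values scaled to totals without mitochondrial genes, 4 hosts were called higher on the mean of the lines and 0 in MOLM-14, where the deposited scale gave 2 and 2, and the host median of the difference between MOLM-13 and SKM-1 given further on was 0.40 on both scales.

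The starts of the transcripts are shown because they mark the family beside its ribosomal protein relatives. Below are 60 bases around the RefSeq start (20 before it and 40 from it, GRCh38.p14), with capitals on the longest pyrimidine run of at least 5 bases that begins with C and lies within 10 bases of the start; they were chosen from the hosts whose values are described further on.
SNHG12, chr1:28581834-28581893, minus strand: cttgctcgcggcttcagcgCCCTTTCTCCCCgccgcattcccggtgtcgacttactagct
SNHG5, chr6:85678694-85678753, minus strand: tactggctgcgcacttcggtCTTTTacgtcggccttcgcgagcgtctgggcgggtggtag
SNHG19, chr16:2155319-2155378, minus strand: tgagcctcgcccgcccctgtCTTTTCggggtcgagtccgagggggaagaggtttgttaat
SNHG16, chr17:76557744-76557803, plus strand: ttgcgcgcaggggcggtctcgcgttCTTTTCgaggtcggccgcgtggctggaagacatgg
SNHG31, chr2:214810209-214810268, plus strand: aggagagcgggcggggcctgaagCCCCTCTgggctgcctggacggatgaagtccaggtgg
SNHG1, chr11:62855846-62855905, minus strand: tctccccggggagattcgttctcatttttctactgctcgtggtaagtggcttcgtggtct
SNHG22, chr18:49814003-49814062, plus strand: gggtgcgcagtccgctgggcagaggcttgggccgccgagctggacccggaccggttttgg
The windows of SNHG1 and SNHG22 held no such run. For GAS5 the RefSeq window (chr1:173869006-173869065) lies upstream of all its GENCODE 29 starts, and 6 of its 29 GENCODE 29 transcripts begin at a pyrimidine tract instead; their first 30 bases share 1 sequence.
GAS5, chr1:173867960-173867989, minus strand: CTTTTCgaggtaggagtcgactcctgtgag

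RefSeq held a start for 25 of the 29 hosts. Such a pyrimidine run was present at 16 of 25 host starts (64%) and at 37.3% of 27305 gene starts. The letters CTTTT were found on the transcribed strand of 8 of 25 host windows (32%) and in 6.47% of all windows, and counting either strand they were found in 8 host windows (32%) and in 11.2% of all windows; CTTTT lies inside some of the runs above, and the window of GAS5 upstream of its GENCODE 29 starts is among the 8. Among the 27 hosts tested, 13 (48.1%) had an annotated transcript that begins with C and 4 further pyrimidines, against 13.3% of the 21639 tested genes with an annotation. A gene counted if any of its transcripts began so, which gives genes with more transcripts more chances. Transcript number was not matched, and among these hosts SNHG29 has 30 and SNHG19 has 1. Promoters of 300 bases (250 before the start, 50 after it) held a median of 25 CG dinucleotides in hosts, with a range of 5 to 43, and 14 over all genes. Their ratio of observed to expected CG passed 0.6 in 22 of 25 hosts (88%) and in 48.9% of all genes. The hosts below it were GAS5, SNHG14 and SNHG20, and the lowest CG count, 5, is that of the GAS5 promoter, which is set by the same RefSeq start. The RefSeq window of SNHG14 (chr15:24823588-24823647) likewise lies upstream of its GENCODE 29 span, which begins at 24978583. DNA methylation was not measured here, so these are descriptions of the sequence.

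Host genes were first compared at baseline. In DMSO cells SNHG29 was the most abundant per kilobase of exon, at 1262 on average over the lines, followed by SNHG6 (897), GAS5 (884), SNHG8 (764), SNHG16 (532), SNHG5 (429) and SNHG1 (387). SNHG27 (2.96), SNHG28 (1.29) and SNHG18 (0.018) were at the bottom, and SNHG18 and SNHG27 did not reach 10 in at least 3 libraries and were not tested. The exons used for the length are all those annotated, which at 43324 bases lowers the value of SNHG14 (86.3) relative to the others. Neighbours in this order, such as SNHG6 and GAS5, differ by less than the spread between lines.

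Levels differed between lines for 23 of the 27 tested hosts, against 77.9% of all genes (F-test across the DMSO groups, adjusted p below 0.05). SNHG14, the long host of the imprinted Prader-Willi region that carries the SNORD115 and SNORD116 clusters, ranged 12.9-fold, with a mean of 8126 in MOLM-13 and 630 in OCI-AML3. SNHG22 ranged 12.9-fold as well, with 387 in SKM-1 and 29.9 in MOLM-14. SNHG29 ranged 7.43-fold, with 8205 in MOLM-14 and 1104 in KG-1. Wider ranges were seen in weakly expressed hosts, 60.7-fold in SNHG9 (15.4 in SKM-1 and 0.253 in MOLM-14) and 18.1-fold in SNHG27 (6.84 in KG-1 and 0.379 in SKM-1). At the other end, SNHG5 spanned 1.49-fold and SNHG30 1.23-fold. SNHG29, GAS5, SNHG8 and SNHG14 were each highest in MOLM-13 or MOLM-14, and SNHG22, SNHG31 and SNHG5 in SKM-1. Libraries of MOLM-13 and SKM-1 form a different set from those of the other lines, as described further on. Where a range crosses these sets, as for SNHG14, SNHG22, SNHG9 and SNHG27, line and set cannot be told apart.

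**Figure D1:**
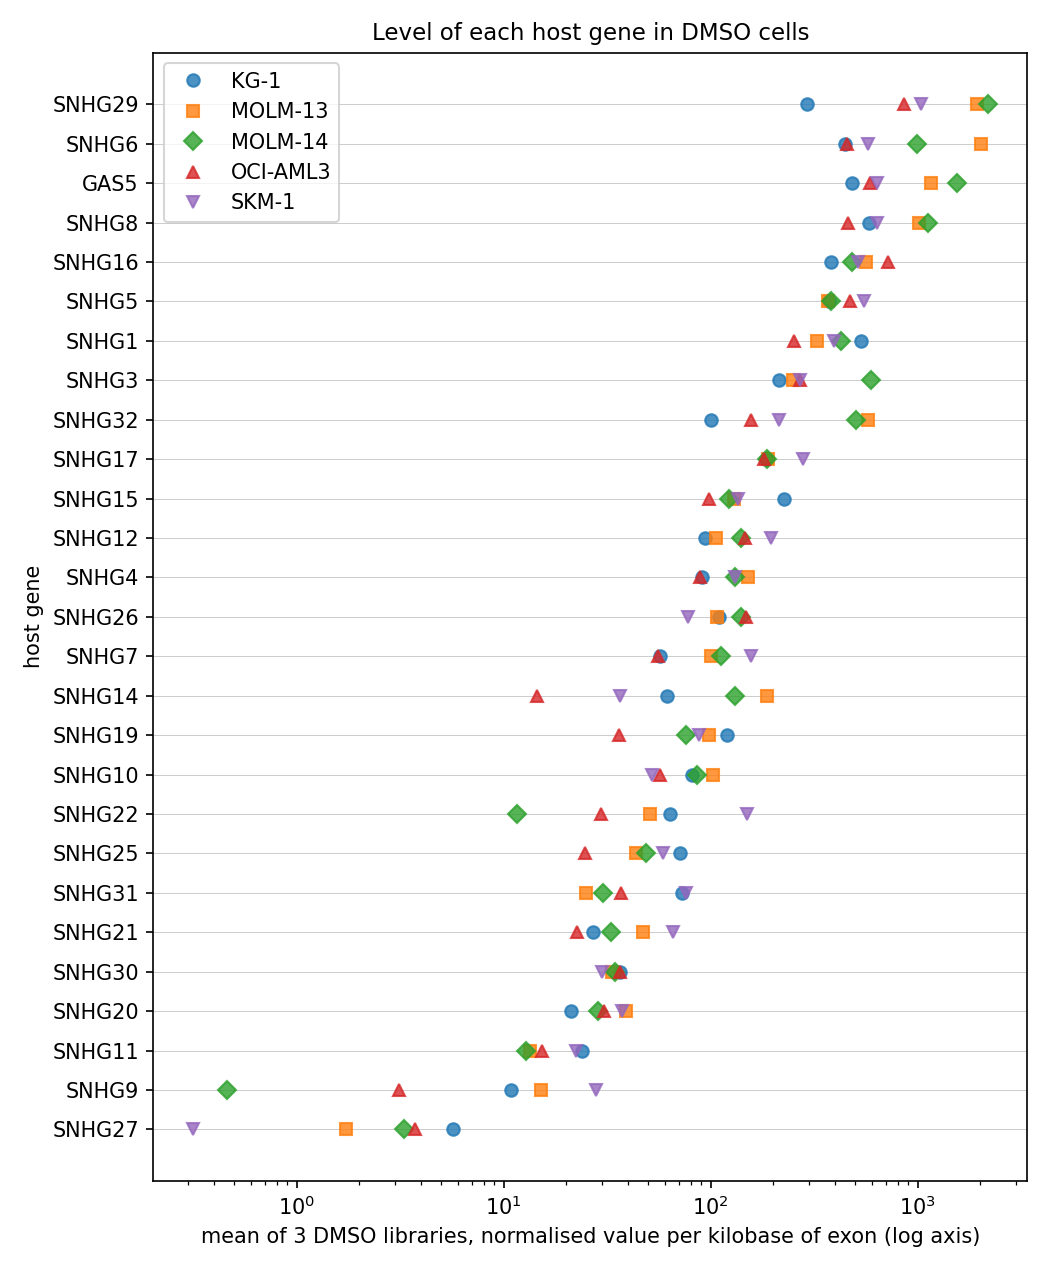
Mean normalised value per kilobase of annotated exon in the 3 DMSO libraries of each line (log axis), for the 27 host genes whose mean was above 0 in all 5 lines. SNHG29, SNHG6 and GAS5 lie highest; SNHG14 and SNHG22 spread over 12.9-fold between lines, and the weakly expressed SNHG9 over 60.7-fold.

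The effect of decitabine was tested as the difference from DMSO in log2(normalised value + 1), in each line and as the mean of the 5 line differences (limma, Benjamini-Hochberg adjustment over 22168 genes, called at an adjusted p below 0.05). On the mean of the lines SNHG22 and SNHG14 were higher after decitabine (2 of 27 hosts; 12% of all genes were called higher; 4 hosts under quantile normalization), and SNHG31, SNHG1 and SNHG16 were lower (3 of 27; 7.52% of all genes were called lower). Together 18.5% of the hosts were called, against 19.5% of all genes, so the share of hosts called was near that of genes in general. The median host difference was 0.02 and the median of all genes 0.06; 14 hosts had a positive and 13 a negative difference. SNHG22 had a positive and SNHG16 a negative difference in all 5 lines, and no other host kept 1 sign throughout.

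**Figure D2:**
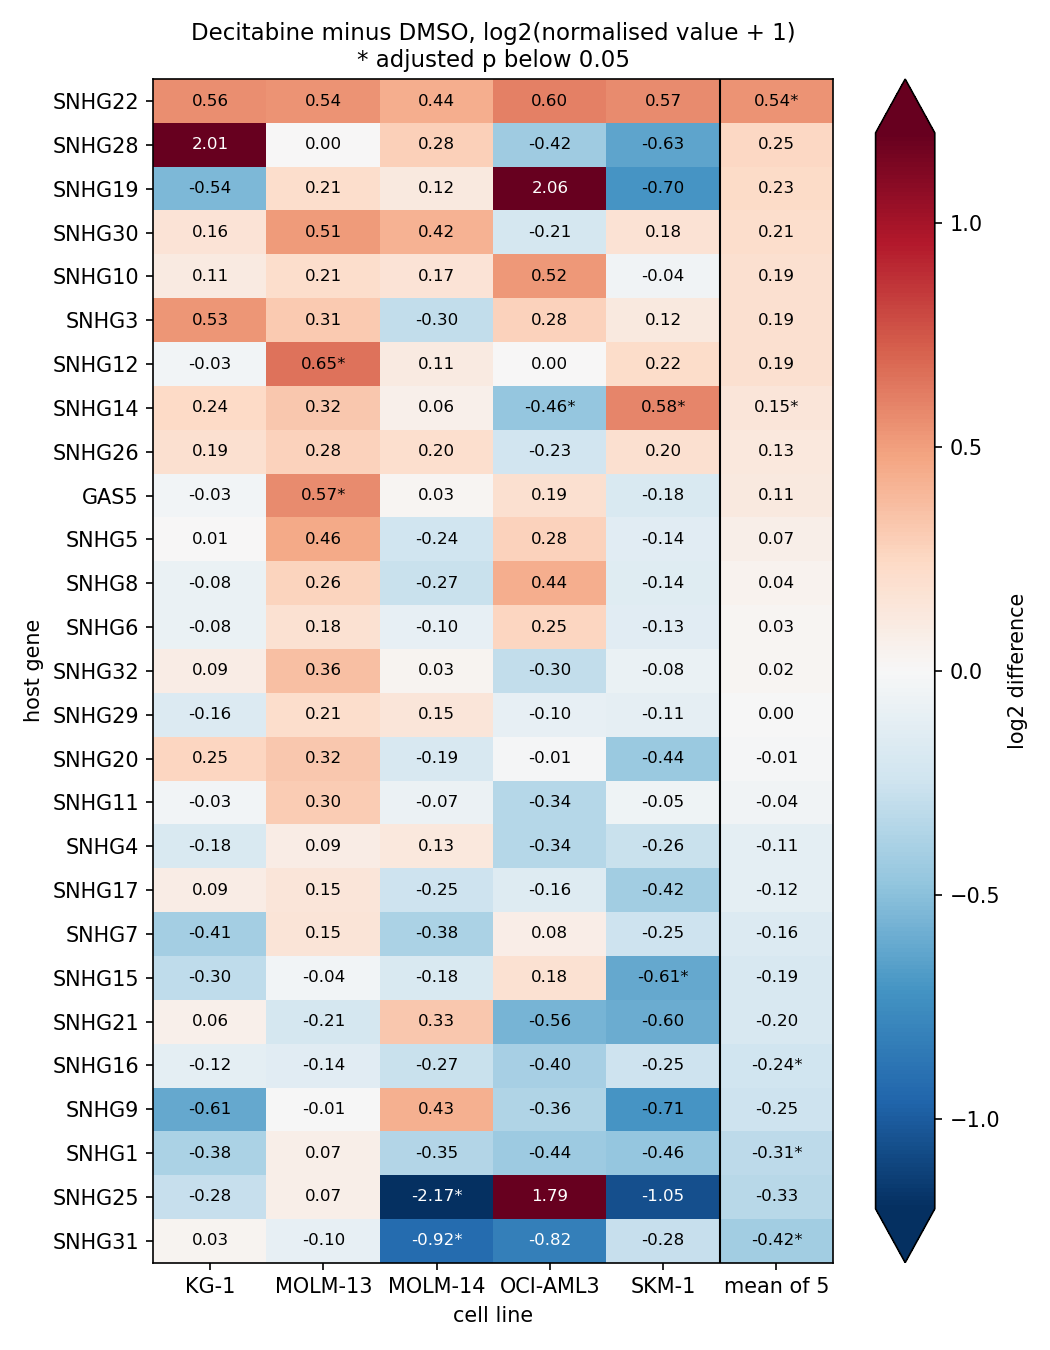
Difference between decitabine and DMSO in log2(normalised value + 1) for the 27 tested host genes (rows) in each line and as the mean of the lines (columns), ordered by that mean; an asterisk marks an adjusted p below 0.05. SNHG22 is positive and SNHG16 negative in every line, while most other rows change sign between lines; the colour scale ends at 1.2 on either side.

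SNHG22 (chr18:49814023-49851059, plus strand, an antisense gene with 2 snoRNAs in its span) had 188, 256 and 289 in decitabine libraries of KG-1, against 193, 127 and 175 in DMSO libraries. In MOLM-13 it had 177, 229 and 173 after decitabine and 144, 129 and 123 with DMSO. In MOLM-14 it had 34.4, 31.1 and 59.1 after decitabine and 25.4, 24.5 and 39.8 with DMSO. The decitabine libraries stood above all DMSO libraries in MOLM-13 and SKM-1 and overlapped them in the other lines. In OCI-AML3 the values were 117, 97.3 and 120 after decitabine and 44.7, 97.6 and 88.5 with DMSO. SKM-1, the line with the highest level, had 552, 567 and 601 after decitabine and 338, 402 and 422 with DMSO. The mean difference over the lines was 0.54 ± 0.12 (SE, adjusted p = 0.0017), and single lines ranged from 0.44 to 0.60 with no call in any of them. SNHG22 shares exons with MYO5B, a myosin motor gene on the opposite strand (-0.07, adjusted p = 0.92), and with no source used here saying whether reads were counted by strand, its values are uncertain. Its divergent neighbour ACAA2, which encodes a mitochondrial enzyme of fatty acid oxidation and starts 63 bases away on the other strand, had a difference of -0.06 (adjusted p = 0.35) on the mean of the lines and was lower in MOLM-13 (-0.32, adjusted p = 0.049).

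SNHG16 (chr17:76557766-76565348, plus strand), the host of SNORD1A, SNORD1B and SNORD1C, had 2745, 2746 and 2732 in decitabine libraries of MOLM-13, against 3107, 3008 and 2921 in DMSO libraries. In SKM-1 it had 2353, 2468 and 2144 after decitabine, against 2835, 2704 and 2741 with DMSO. In OCI-AML3 it had 3318, 2252 and 3260 after decitabine, against 4095, 3361 and 4058 with DMSO. Every decitabine library lay below every DMSO library in each of these lines. MOLM-14 showed the same separation, with 2264, 1894 and 2289 after decitabine and 2833, 2352 and 2587 with DMSO. KG-1 had 1989, 1589 and 2136 after decitabine and 2057, 2006 and 2100 with DMSO, and its groups overlapped. The mean difference was -0.24 ± 0.06 (SE, adjusted p = 0.0031).

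SNHG1 (chr11:62851988-62855914, minus strand) is the host of a run of box C/D snoRNAs, and 7 snoRNAs lie in its span. It had 1164, 1092 and 982 in decitabine libraries of SKM-1, against 1476, 1510 and 1460 in DMSO libraries. OCI-AML3 had 602, 717 and 781 after decitabine and 856, 938 and 1044 with DMSO. MOLM-14 had 1281, 1278 and 1199 after decitabine and 1441, 1799 and 1583 with DMSO. In these lines the groups were apart, with decitabine lower. KG-1 had 1563, 1467 and 1323 after decitabine and 2963, 1381 and 1645 with DMSO, where DMSO replicate 1 stood high. MOLM-13 had 1200, 1305 and 1377 after decitabine and 1194, 1254 and 1237 with DMSO, so the arms overlapped there. The mean difference was -0.31 ± 0.08 (SE, adjusted p = 0.0041); without SKM-1 it was -0.28 and not called (adjusted p = 0.064).

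SNHG1 starts 188 bases from SLC3A2, which runs the other way and encodes the heavy chain of a large neutral amino acid transporter. SLC3A2 had a difference of -0.81 ± 0.08 (SE, adjusted p = 1.9e-08) on the mean of the lines. It was lower in MOLM-14 (-1.78, adjusted p = 9.59e-08), SKM-1 (-1.32, adjusted p = 4.00e-06) and OCI-AML3 (-0.83, adjusted p = 0.0029), with -0.18 in MOLM-13 and 0.06 in KG-1. The differences of SNHG1 were -0.35 in MOLM-14, -0.46 in SKM-1, -0.44 in OCI-AML3, 0.07 in MOLM-13 and -0.38 in KG-1. Of the 10 pairs of a host and a gene that starts within 1000 bases on the other strand, 8 partners were tested, and SLC3A2 was the only partner called on the mean of the lines. Beside GAS5, ZBTB37 had 0.18 (adjusted p = 0.16), and beside SNHG9, the ribosomal protein gene RPS2 had -0.01.

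SNHG31 (chr2:214810229-214963274, plus strand; named AC016708.1 in GENCODE 29) starts opposite BARD1, whose product is the partner of BRCA1. It had 38.4, 22.9 and 38.8 in decitabine libraries of MOLM-14, against 47.8, 80.7 and 62.9 in DMSO libraries. SKM-1 had 123, 132 and 140 after decitabine and 170, 154 and 155 with DMSO. OCI-AML3 had 51.5, 28.0 and 43.1 after decitabine and 60.6, 125 and 47.0 with DMSO, with 1 DMSO library far above the rest. The groups were apart in MOLM-14 and SKM-1 and overlapped in OCI-AML3, KG-1 and MOLM-13. KG-1 had 155, 146 and 168 after decitabine and 163, 134 and 163 with DMSO, and MOLM-13 had 49.0, 43.8 and 52.4 after decitabine and 60.7, 41.1 and 55.7 with DMSO. The mean difference was -0.42 ± 0.13 (SE, adjusted p = 0.024). It was -0.21 and not called without the shallow libraries (adjusted p = 0.054), and -0.29 without MOLM-14 (adjusted p = 0.15). The call was also lost with a replicate block, with library weights or without SKM-1, as given at the end. BARD1 had -0.31 (adjusted p = 0.29).

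SNHG14 (chr15:24978583-25419462, plus strand) moved in opposite directions in different lines. It had 2429, 2360 and 2284 in decitabine libraries of SKM-1, against 1700, 1572 and 1452 in DMSO libraries. MOLM-13 had 10166, 10112 and 10207 after decitabine and 8611, 7952 and 7814 with DMSO. Both lines were higher after decitabine with no overlap. OCI-AML3 had 453, 456 and 447 after decitabine and 580, 762 and 548 with DMSO, so that here the decitabine libraries were the lower ones. KG-1 had 3402, 2747 and 3378 after decitabine and 3040, 2421 and 2585 with DMSO, and MOLM-14 had 6418, 5118 and 6265 after decitabine and 6036, 5142 and 5847 with DMSO, with overlap in both.

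The difference of SNHG14 was 0.58 ± 0.11 (SE) in SKM-1 (adjusted p = 0.00097) and -0.46 ± 0.11 in OCI-AML3 (adjusted p = 0.015), and the test that the response differs between lines gave an adjusted p of 0.000908. The call on the mean of the lines (0.15 ± 0.05, adjusted p = 0.04) was lost in 19 of 30 fits that left out 1 library, with an adjusted p of up to 0.073. SNRPN, the spliceosomal gene whose exons overlap SNHG14 on the same strand, was lower in OCI-AML3 (-1.50, adjusted p = 0.027) and had 0.22 in SKM-1 and 0.11 in MOLM-13; reads that fall in shared exons cannot be assigned to either gene with certainty. UBE3A, a ubiquitin ligase gene on the opposite strand that SNHG14 overlaps, had -0.27 on the mean of the lines (adjusted p = 0.058), and whether the counting used strand is not given in the sources used here.

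GAS5 (chr1:173863900-173868882, minus strand) had 6436, 6471 and 5684 in decitabine libraries of MOLM-13, against 3534, 4329 and 4774 in DMSO libraries. All decitabine libraries of this line stood above its DMSO libraries. SKM-1 had 2372, 1845 and 1945 after decitabine and 2247, 2431 and 2290 with DMSO, and the other lines overlapped as well. KG-1 had 1472, 1737 and 1962 after decitabine and 1605, 1760 and 1896 with DMSO. MOLM-14 had 5960, 5442 and 5812 after decitabine and 5549, 5770 and 5577 with DMSO. OCI-AML3 had 2494, 2125 and 2665 after decitabine and 2014, 1992 and 2380 with DMSO. The difference was 0.57 ± 0.12 (SE, adjusted p = 0.0079) in MOLM-13, -0.18 in SKM-1, -0.03 in KG-1, 0.03 in MOLM-14 and 0.19 in OCI-AML3. The response differed between lines (F-test, adjusted p = 0.0291), as it did for 2 of 27 hosts and 9.46% of all genes. That count of hosts was 1 without MOLM-13 decitabine replicate 1 or 2, or MOLM-13 DMSO replicate 1 or 2. It was also 1 without SKM-1 decitabine replicate 2 or 3, or SKM-1 DMSO replicate 2. Without OCI-AML3 decitabine replicate 2 it was 4, and without replicate 3 it was 5. The mean of the lines for GAS5 was 0.11 ± 0.05 (adjusted p = 0.15).

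**Figure D3:**
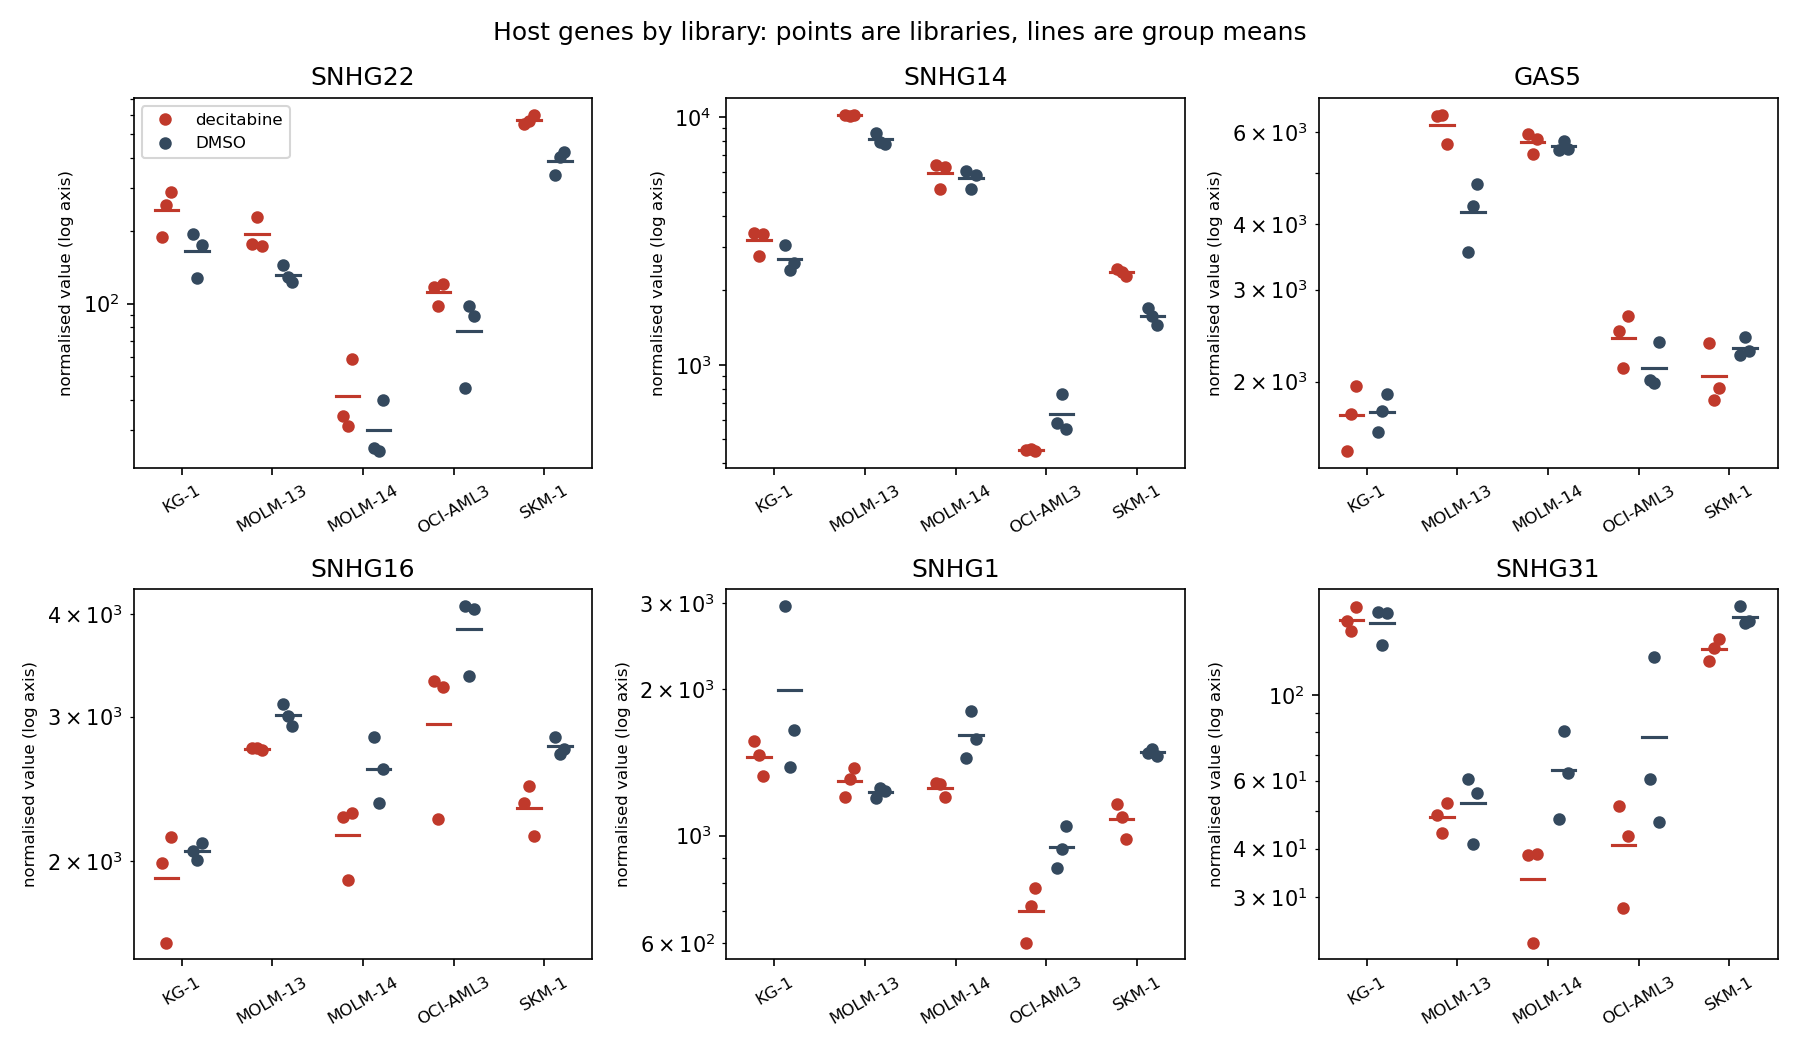
Normalised values (log axis) of 6 host genes in each of the 30 libraries, decitabine left of DMSO in each line; points are libraries and lines are group means. In SNHG14 decitabine lies above DMSO in SKM-1 and below it in OCI-AML3, and in GAS5 the arms separate in MOLM-13.

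Within single lines few hosts were called. In MOLM-13 GAS5 and SNHG12 were higher (2 of 27, against 1.45% of all genes), and both calls were lost without decitabine replicate 1 or DMSO replicate 1 of that line. Only 1 host was called there when decitabine replicate 2 or 3 or DMSO replicate 2 or 3 of MOLM-13 was left out. SNHG12, a host of box H/ACA snoRNAs and SNORD99, had 730, 693 and 707 after decitabine and 400, 490 and 469 with DMSO in MOLM-13 (0.65 ± 0.17, SE, adjusted p = 0.032), with no overlap. In MOLM-14 SNHG31 (-0.92, adjusted p = 0.041) and SNHG25 (-2.17, adjusted p = 0.042) were lower (2 of 27; 4.77% of all genes). SNHG25 is a short, weakly expressed host, with 5.46, 0 and 3.86 after decitabine and 14.2, 16.2 and 9.98 with DMSO, and 0 hosts were called in MOLM-14 when its decitabine replicate 2, DMSO replicate 2 or DMSO replicate 3, SKM-1 decitabine replicate 1, or SKM-1 DMSO replicate 1 or 2 was left out.

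In OCI-AML3 SNHG14 was lower (1 of 27; 1.64% of all genes). Fits that left out 1 library called 1 to 4 hosts there, with 4 without OCI-AML3 DMSO replicate 3 and 3 without OCI-AML3 decitabine replicate 3, and 1 to 4 in SKM-1, with 4 without KG-1 DMSO replicate 2 and 1 without SKM-1 decitabine replicate 3 or DMSO replicate 3. In SKM-1 SNHG14 was higher (1 of 27; 5.7% of all genes) and SNHG15 lower (1 of 27; 3.32% of all genes); SNHG15 had 319, 349 and 301 after decitabine and 468, 460 and 555 with DMSO (-0.61 ± 0.16, SE, adjusted p = 0.012). In KG-1 limma called 0 hosts (3.78% of all genes), 6 of 27 had an unadjusted p below 0.05 (13.9% of all genes), and 1 was called with library weights. Between the sister lines MOLM-13 and MOLM-14 the response differed for 0 hosts (1.43% of all genes), with 9 of 27 at an unadjusted p below 0.05 (12.9% of all genes) and 1 called with library weights. The median of that difference was 0.28 in hosts and 0.01 over all genes. The sister lines belong to different sets of libraries, described further on, so line and set cannot be told apart in it.

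The hosts as a group sat on different sides in the deeply sequenced lines. In MOLM-13 21 of 27 hosts had a positive difference and the median was 0.21, against 0.08 over all genes. In SKM-1 21 of 27 had a negative difference and the median was -0.18, against 0.08 over all genes. Decitabine libraries stood wholly above DMSO libraries for 15 hosts and wholly below for 1 in MOLM-13, where these shares were 22.8% and 17% over all genes, and above for 3 and below for 11 in SKM-1, where they were 29.2% and 18.9%. In KG-1 1 host stood above and 2 below (10.2% and 6.44% of all genes), in MOLM-14 2 and 7 (11.2% and 9.5%), and in OCI-AML3 2 and 5 (10.1% and 7.42%). Medians in those lines were -0.03, 0.03 and -0.10.

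MOLM-13 and SKM-1 were then fitted alone, a choice made after seeing the data, because the spread estimated over all lines includes the shallow libraries. In MOLM-13 11 of 27 hosts were called higher (14.1% of all genes) and 0 lower (11.4% of all genes; 1 host under quantile or trimmed-mean scaling). These were SNHG12 (0.65), GAS5 (0.57), SNHG22 (0.54), SNHG30 (0.51), SNHG5 (0.46), SNHG32 (0.36), SNHG14 (0.32), SNHG3 (0.31), SNHG26 (0.28), SNHG8 (0.26) and SNHG29 (0.21). The count was 7 without MOLM-13 decitabine replicate 1 and 6 without MOLM-13 DMSO replicate 1. SNHG5, the host of SNORD50A and SNORD50B, had 1347, 1527 and 1398 after decitabine, against 1061, 952 and 1095 with DMSO in MOLM-13. In SKM-1 it had 1469, 1414 and 1326 after decitabine and 1488, 1647 and 1494 with DMSO. Its groups were thus apart in both lines, with decitabine above DMSO in MOLM-13 and below it in SKM-1.

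In SKM-1 9 of 27 hosts were called lower (13.1% of all genes), namely SNHG25 (-1.05), SNHG19 (-0.70), SNHG15 (-0.61), SNHG21 (-0.60), SNHG1 (-0.46), SNHG20 (-0.44), SNHG17 (-0.42), SNHG4 (-0.26) and SNHG16 (-0.25). SNHG14 (0.58) and SNHG22 (0.57) were called higher (2 of 27; 20.2% of all genes). SNHG19, a short host of SNORD60, had 18.8, 18.2 and 17.02 in decitabine libraries of SKM-1 and 27.8, 31.2 and 30.8 in DMSO libraries, while in MOLM-13 it had 39.0, 45.3 and 31.7 after decitabine and 33.9, 26.0 and 40.5 with DMSO. The 2 lists share SNHG22 and SNHG14 among the higher hosts, and no host was called higher in MOLM-13 and lower in SKM-1.

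The difference between the responses was itself tested in that fit. It was called higher in MOLM-13 than in SKM-1 for 12 of 27 hosts (7.56% of all genes) and lower for 1, SNHG14 (11.7% of all genes). Among them were SNHG19 (0.91 ± 0.26, SE, adjusted p = 0.027), SNHG20 (0.77 ± 0.18, adjusted p = 0.01), GAS5 (0.75 ± 0.16, adjusted p = 0.0061) and SNHG5 (0.59 ± 0.10, adjusted p = 0.0015). The median difference was 0.40 in hosts and 0.00 over all genes, with 25 of 27 hosts positive. Under the 3 other scalings 12 to 14 hosts were called higher and 25 stayed positive, and leaving out 1 library gave 8 to 13. SNHG22 (-0.03 ± 0.17) and SNHG14 (-0.26 ± 0.08) were the 2 hosts with a negative difference, and the SNHG14 call was lost in 9 of the 12 fits that left out 1 library. On the mean of MOLM-13 and SKM-1, 7 hosts were higher (25.2% of all genes) and 4 lower (15.3%), and 13 differed between them in all (19.2%). With OCI-AML3, KG-1 and MOLM-14 fitted alone, limma called 0 hosts on their mean (3.51% of all genes higher, 1.55% lower), and 4 of 27 had an unadjusted p below 0.05 (17.5% of all genes).

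**Figure D4:**
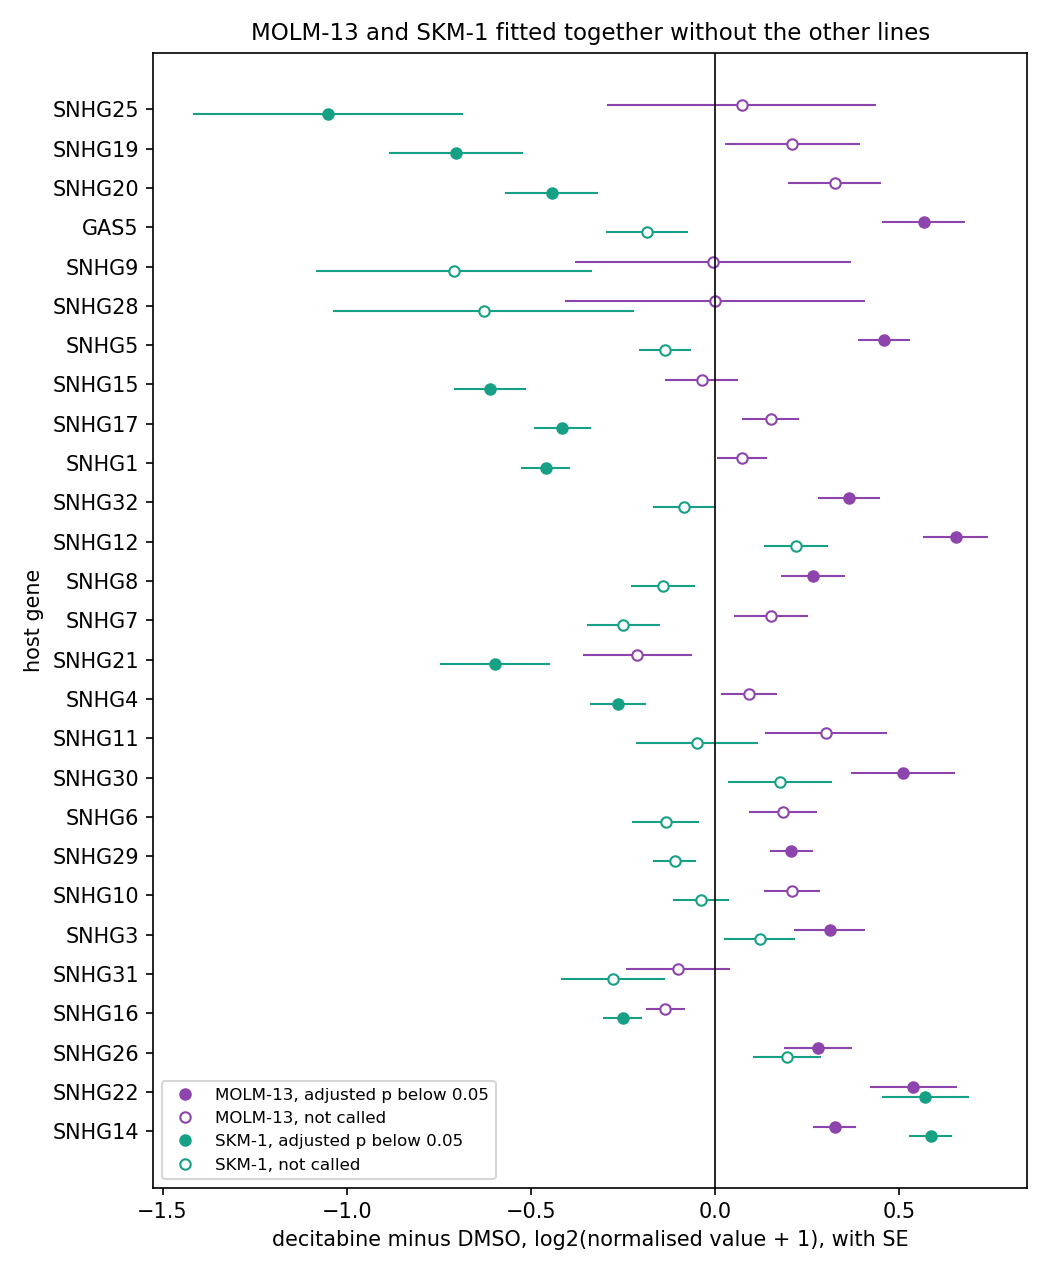
Difference between decitabine and DMSO in log2(normalised value + 1), with its SE, for the 27 tested host genes in MOLM-13 and SKM-1, from a fit of these lines alone; filled points have an adjusted p below 0.05 and rows are ordered by the difference between the lines. MOLM-13 points lie to the right of SKM-1 points in all rows but SNHG22 and SNHG14.

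Gene groups related to the hosts were read on the same scale. Of 18 proteins of snoRNA particles and their assembly, 11 were lower on the mean of the lines (7.52% of all genes), with a median of -0.19. Among them GAR1, a core protein of box H/ACA particles, had -0.50 (adjusted p = 0.00063), the assembly factor SHQ1 had -0.57 (adjusted p = 0.033) and NUFIP1, which acts in box C/D assembly, had -0.38 (adjusted p = 2.32e-05). Of 26 protein-coding snoRNA hosts, 11 were lower and 1 higher, with a median of -0.14; nucleolin (NCL) had -0.35 and the mitochondrial chaperone gene HSPA9 had -0.29. Of 21 factors of nonsense-mediated decay and the exon junction complex, 5 were lower, with a median of -0.12; ETF1, the translation termination factor, had -0.42 (adjusted p = 7.27e-07) and MAGOH had -0.37. The noncoding hosts outside the naming rule (ZFAS1, DANCR, EPB41L4A-AS1 and MEG8) had a median of -0.02, with 0 of 4 called or at an unadjusted p below 0.05.

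Another list held 17 genes taken to have a pyrimidine-tract start, translation factors and others outside the ribosomal proteins. Of these, 2 were lower on the mean of the lines (7.52% of all genes). They were NPM1 (-0.30), a nucleolar histone chaperone, and HNRNPA1 (-0.13), an RNA-binding protein that acts in splicing; neither is a translation factor. Of 85 tested genes named as ribosomal proteins 3 were called (19.5% of all genes), all paralogs of the usual subunits. RPL3L (1.43) and RPS27L (0.31) were higher (12% of all genes) and RPL7L1 (-0.22) was lower (7.52%). The list of 26 protein-coding snoRNA hosts shares EEF1B2, EEF2, TPT1 and RACK1 with these 17 genes. With MOLM-13 and SKM-1 alone, the difference between their responses was called higher for 22 of 85 ribosomal protein genes (7.56% of all genes). It was called higher for 5 of these 17 genes, 8 of 26 protein-coding snoRNA hosts and 1 of the 4 noncoding hosts outside the naming rule. Among snoRNA particle proteins it was higher for 2 of 18, and among decay and exon junction factors for 1 of 21. In SKM-1 13 of 18 snoRNA particle proteins were lower in that fit, and in MOLM-13 10 of 18 (13.1% and 11.4% of all genes). Whether hosts differ from these groups was not tested.

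Genes that overlap a host can share its reads. RCC1, a regulator of chromosome condensation whose exons overlap SNHG3 on the same strand, was lower (-0.40, adjusted p = 1.64e-06) while SNHG3 had 0.19 (adjusted p = 0.063). SEC14L1, which overlaps SNHG20 on the same strand, was higher (0.31, adjusted p = 0.04) while SNHG20 had -0.01. The noncoding gene AC124312.3, inside SNHG14, was higher (0.66, adjusted p = 0.01). Values of these hosts are therefore uncertain where exons are shared, and likewise those of SNHG28, SNHG4, SNHG21 and SNHG32, which overlap other genes on their own strand. Exons are shared with a gene on the opposite strand by SNHG16 (AC015802.6), SNHG12 (TRNAU1AP), GAS5 (GAS5-AS1) and SNHG22 (MYO5B).

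The snoRNAs themselves were read where the table lists them. A match by strand and span in GENCODE 29 placed 139 snoRNAs or related small RNAs in 27 hosts, 84 of them in SNHG14. It placed none in GAS5, which does not show that GAS5 carries no snoRNA. The match was incomplete, since for SNHG5 it found SNORD50B and not SNORD50A. Of the 139, 129 are in the table, 54 of these are listed at 0 in all 30 libraries and 32 were tested. On the mean of the lines limma called 0 of the 32, and 1 had an unadjusted p below 0.05; their median difference was 0.15. Within single lines 1 of the 32 was called, SNORD116-14 of SNHG14, higher in KG-1 (adjusted p = 0.0269), where 3.12% of all genes were called higher. It had 29.2, 21.5 and 40.9 in decitabine libraries of KG-1 and was listed at 0 in all 3 DMSO libraries. Its highest value, 102, was in another line. Many SNORD116 copies differ from each other at few bases, so reads of 50 bases may not be assigned to 1 copy with certainty. Whether this row follows 1 copy was not tested. The most abundant of the 32 was SNORA73B in SNHG3, a box H/ACA RNA, with values of 210 to 3543 and a median of 758 (0.14 ± 0.13, SE). SCARNA13 in SNHG10, a guide of Cajal bodies, had 37.3 to 382 (0.31 ± 0.11, adjusted p = 0.06). Since 49 of the 139 overlap an annotated exon of their host, part of these reads may come from the host.

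Box C/D snoRNAs are recognised by their C and D boxes. Those below are shown because their hosts SNHG16, SNHG1, SNHG19 and SNHG14 are described above (GENCODE 29, GRCh38). Capitals mark the first GATGA near the start, the letters of the C box core, and the last CTGA near the end, those of the D box. In SNORD116-26 another GATGA begins inside the marked letters and ends after them, so the mark there may not lie on the core.
SNORD1C in SNHG16, chr17:76558791-76558868, plus strand: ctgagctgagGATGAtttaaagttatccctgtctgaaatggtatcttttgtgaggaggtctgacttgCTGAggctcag
SNORD26 in SNHG1, chr11:62855292-62855366, minus strand: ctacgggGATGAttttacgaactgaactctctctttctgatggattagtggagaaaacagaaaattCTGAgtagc
SNORD28 in SNHG1, chr11:62854621-62854695, minus strand: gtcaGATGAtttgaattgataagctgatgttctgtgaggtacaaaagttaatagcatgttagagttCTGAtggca
SNORD60 in SNHG19, chr16:2155023-2155105, minus strand: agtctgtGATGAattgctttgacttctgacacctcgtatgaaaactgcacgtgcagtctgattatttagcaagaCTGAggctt
SNORD116-26 in SNHG14, chr15:25099499-25099594, plus strand: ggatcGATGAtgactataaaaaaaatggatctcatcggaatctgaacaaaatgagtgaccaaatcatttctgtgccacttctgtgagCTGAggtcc
SNORD26 had a median of 21.4 over the 30 libraries and a highest value of 62.6, with a difference of 0.38 ± 0.36 (SE). SNORD1C had a median of 9.87 and a difference of -0.09 ± 0.38.

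These small RNAs also show that the libraries fall into 2 sets. SNORD1C, SNORD26 and SNORD28 were above 0 in 17 of the 18 libraries of OCI-AML3, KG-1 and MOLM-14 and in 0 of the 12 libraries of MOLM-13 and SKM-1. Of 18 tested box C/D snoRNAs, which are 67 to 126 bases long, 15 were at 0 in every MOLM-13 and SKM-1 library. Of 11 tested box H/ACA snoRNAs, 130 to 206 bases long, 1 was. In this respect MOLM-13 and SKM-1, the deeper lines, do not resemble the others. In levels compared between the sets, of short RNAs or of hosts, line and set cannot be told apart. Decitabine and DMSO are compared within a line, where both arms belong to the same set. A difference in response between lines of different sets carries the same limit as the levels.

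**Figure D5:**
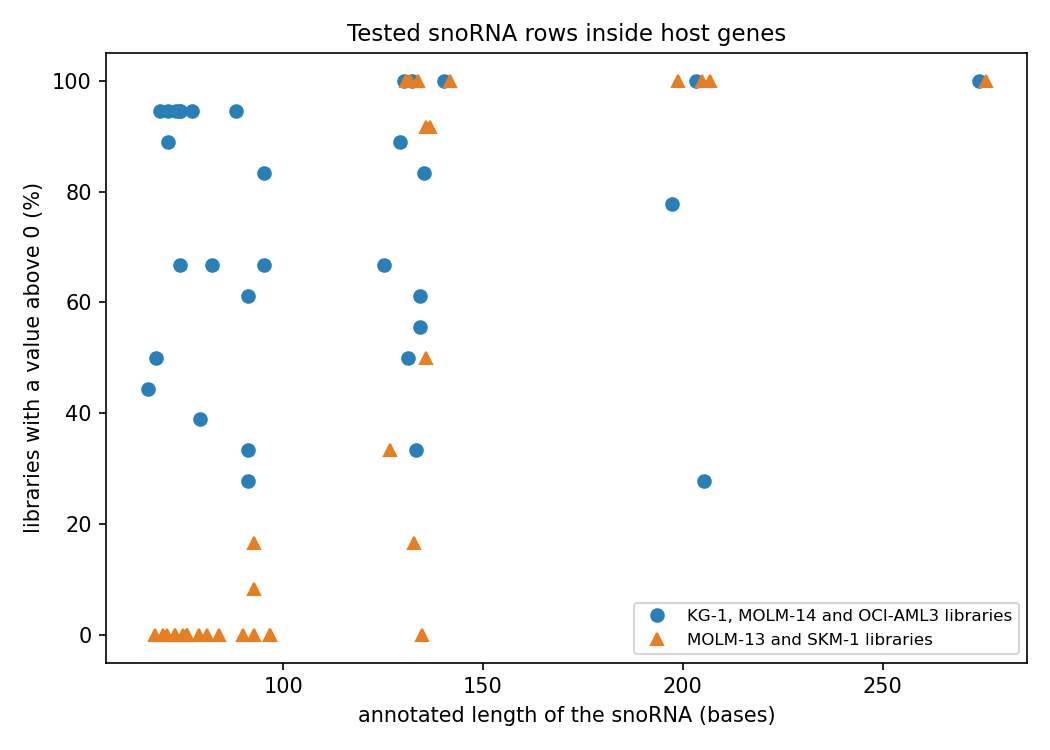
Share of libraries with a value above 0 for each of the 32 tested snoRNA rows inside host genes, by annotated length, in the 12 libraries of MOLM-13 and SKM-1 (triangles) and the 18 of OCI-AML3, KG-1 and MOLM-14 (circles). Most rows shorter than 100 bases are at 0 in the first set and above 0 in many libraries of the second.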

How the data were processed

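Per the labels' protocols, RNeasy-extracted RNA was depleted with RiboGone, built into strand-specific libraries (SMARTer kit) and sequenced from 1 end for 50 bases. The submitters' processing notes list hg38 and, with no role or order, limma, DESeq2, featureCounts, STAR and Salmon 1.2.1. The annotation release is not given in the sources used here. The deposited values, per the authors' table name, are a linear signal per gene, namely estimated counts after DESeq2 normalization. In a library, 50.1% to 71.3% of low values were whole multiples of a step within 0.02, so whole reads were not recovered, no count model was run, and depth (total divided by step) is an estimate. The 12 labelled OCI-AML2 and THP-1 libraries were not analysed here, and 12 unlabelled columns were not used. Columns of MOLM-13 and SKM-1 are named by the labels; the other columns were assigned from the line, the treatment letter and the number in their names, and MOLM-14 is not in the series' design text.

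Values were analysed as log2(value + 1), so fold changes of low genes are understated. Genes at 10 or more in at least 3 libraries were tested. limma 3.58.1 (R 4.3.3, statmod 1.5.0) fitted 10 group means with 20 residual degrees of freedom, trend and robust moderation, adjusting p over all 22168 genes. The script was tested on simulated data. The same tables gave F-tests between lines. Coordinates come from GENCODE 29 (GRCh38) by identifier (58064 genes and all 29 hosts matched) and start sequences from RefSeq (GRCh38.p14). Alternatives covered pseudocount, filter, scaling, library weights, a replicate block, omitted libraries and lines. Values in every library were given for GAS5, SNHG1, up to 5 hosts called in each direction on the mean of the lines and those called for a difference between lines; of each list, up to 3 genes called with the largest difference were named. SNHG12, SNHG15, SNHG25, SNHG5 and SNHG19 were added after their values were seen. Hosts and lists were chosen with earlier results of these data known.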

Additional observations from a re-analysis of the deposited data

Results flagged for a closer look

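The response to decitabine differed between the 5 lines for SNHG14 (limma F-test, adjusted p = 0.000908) and GAS5 (adjusted p = 0.0291). SNHG14 was higher after decitabine in SKM-1 and lower in OCI-AML3, and GAS5 was higher in MOLM-13. Only 1 host differed between lines in several fits that left out 1 library of MOLM-13 or SKM-1, as given with GAS5 above.

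With MOLM-13 and SKM-1 fitted alone, the difference between their responses (MOLM-13 minus SKM-1, log2 scale) passed an adjusted p of 0.05 for 13 hosts. It was 0.91 for SNHG19, 0.77 for SNHG20, 0.75 for GAS5, 0.59 for SNHG5 and 0.57 for both SNHG17 and SNHG15. It was 0.53 for SNHG1, 0.45 for SNHG32, 0.43 for SNHG12, 0.41 for SNHG8, 0.36 for SNHG4 and 0.32 for SNHG29. SNHG14 had the opposite sign, at -0.26, and was not called in 9 of the 12 fits that left out 1 library.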

How the results depend on the processing

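SNHG1, SNHG16, SNHG22 and SNHG31 were called on the mean of the lines in all 30 fits that left out 1 library, and SNHG14 in 11. SNHG14 was not called without the filter (adjusted p = 0.0673), with trimmed-mean scaling (0.229), without trend and robust moderation (0.0738) or without KG-1 (0.108), MOLM-13 (0.316) or SKM-1 (0.76), and its difference was -0.053 (0.805) with OCI-AML3, KG-1 and MOLM-14 alone. GAS5 was called under quantile normalization (0.17, adjusted p = 0.0359) and had -0.000465 without MOLM-13 (0.997). SNHG31 was not called with library weights (0.0617) or without SKM-1 (0.0879), and in the 3 lines alone SNHG22 (0.53, adjusted p = 0.157), SNHG16 (-0.26, 0.111), SNHG1 (-0.39, 0.076) and SNHG31 (-0.57, 0.151) were not called. The cause was not tested.

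Counts of hosts called moved as follows from 2 higher and 3 lower on the mean, 2 that differ between lines, and 0 in KG-1, 2 in MOLM-13, 2 in MOLM-14, 1 in OCI-AML3 and 2 in SKM-1. With a pseudocount of 10 they were 1 in MOLM-14 and 3 in OCI-AML3. Without a filter they were 1 higher on the mean, 1 in MOLM-13 and 0 in MOLM-14. Quantile normalization gave 4 higher on the mean, 5 between lines, 1 in MOLM-13 and 2 in OCI-AML3. Scaling without mitochondrial genes gave 4 higher and 0 in MOLM-14, and trimmed-mean scaling 1 higher, 1 in MOLM-13 and 4 in SKM-1. Library weights gave 13 between lines, 1 between MOLM-13 and MOLM-14, 1 in KG-1, 12 in MOLM-13, 0 in MOLM-14, 0 in OCI-AML3 and 11 in SKM-1. Without trend and robust moderation 1 was higher on the mean, 1 differed between lines and 1 was called in MOLM-13. Without the shallow libraries 4 were higher, 9 differed between lines and 1 between MOLM-13 and MOLM-14, and 6 were called in MOLM-13, 5 in OCI-AML3 and 8 in SKM-1. Of all genes 18.7% were then called higher on the mean and 21.6% differed between lines, against 12% and 9.46% with all libraries. The 6 in MOLM-13 were higher (6.41% of all genes). In OCI-AML3 2 were higher and 3 lower (6.41% and 3.53%), and in SKM-1 1 and 7 (13.2% and 7.62%). Shares over all genes are not given here for the other settings, so those counts show only how the calls moved. Without MOLM-13 the counts were 1 higher and 1 between lines, without OCI-AML3 5 and 4, and without SKM-1 1 and 1, with 1 lower. With OCI-AML3, KG-1 and MOLM-14 alone 0 were higher, 0 lower and 0 between lines, and with SKM-1 and MOLM-13 alone 7 were higher and 13 differed.

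In the fit of MOLM-13 and SKM-1 alone, trimmed-mean scaling gave 7 higher and 1 lower in MOLM-13, 14 lower in SKM-1 and 0 with a lower difference; quantile normalization gave 1 lower in MOLM-13. The all-gene median of SKM-1 moved from 0.08 to -0.07 under quantile normalization, and the host median was -0.26 there.

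Leaving out 1 library gave 1 to 3 higher and 3 to 4 lower on the mean, 1 to 5 that differ between lines, 22 to 25 with differing DMSO levels, 0 to 1 between MOLM-13 and MOLM-14, 0 to 1 in KG-1, 0 to 2 in MOLM-13, 0 to 3 in MOLM-14, 1 to 4 in OCI-AML3 and 1 to 4 in SKM-1. With MOLM-13 and SKM-1 alone it gave 6 to 11 higher and 0 to 1 lower in MOLM-13, 2 to 3 higher and 7 to 9 lower in SKM-1, and 8 to 13 higher and 0 to 1 lower for the difference.

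Replicate numbers were not taken to pair the libraries, since deviations of same-numbered libraries correlated at over 0.1 in 6 of 15 pairs. In OCI-AML3, KG-1 and MOLM-14 these correlations were 0.0703 to 0.153 and all 18 libraries correlated best with their own number, a hint from the data and not from the design. In MOLM-13 and SKM-1 they were -0.0225 to 0.0408, and 6 of 12 libraries did so. With the replicate block 2 hosts were called in OCI-AML3 and 4 in SKM-1, SNHG31 was not called (-0.42, adjusted p = 0.0722), and with MOLM-13 and SKM-1 alone the difference was higher for 9 hosts and lower for 0. Without the shallow libraries 0 hosts were called in KG-1 (4.57% of all genes higher, 1.19% lower) and 2 lower in MOLM-14 (6.1% of all genes), the same counts as with them. The 2 in MOLM-14 were then SNHG16 and SNHG7, while SNHG31 and SNHG25 were not called.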
